A study of Gossypium hirsutum with 24 samples.

Results

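Haemoglobin 2 belongs to a family of oxygen-binding proteins, and alcohol dehydrogenase 1 (ADH1) is a gene that plants are known to use when oxygen runs short. Each was followed through 1 probe set of the Affymetrix Cotton GeneChip, GarAffx.24390.1.S1_s_at and GarAffx.29310.2.S1_s_at. These are 2 of the 23977 probe sets tested, and they were picked by name with their infested against control fold changes already known, so those fold changes are given here as a description, without a test. Both carry the names of their best matches in Arabidopsis, AHB2 and ADH1. The ending _s_at marks probes shared by several similar transcripts, so close copies of either gene may add to its signal, and neither of these probe sets is paired with a cotton gene in the reference table used here.

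Developing bolls of Gossypium hirsutum cv. Bikaneri narma were profiled as noninfested controls (CN) or after infestation with second instar larvae of the bollworm Helicoverpa armigera (BS), at stages called 0, 2, 5 and 10 dpa, with 3 arrays in each of the 8 groups. The 0 dpa bolls were taken 8 h after larval release, and for 10 dpa the insect was removed after 5 days and the bolls were left for up to 10 days by the labels. The methods instead speak of 10 further days of growth after the removal, so the age of the 10 dpa bolls is uncertain. Complete bolls were extracted at 0 and 2 dpa and the infested portion alone at 5 and 10 dpa, each replicate being a pool of bolls from several plants. In every step from 2 to 5 dpa, stage and the part extracted therefore cannot be told apart. Control and infested plants stood in separate field plots, so plot and infestation cannot be told apart. All bolls were bagged by the methods, in aerated paper, whereas the labels speak of polythene for the infested flowers, and no oxygen measurement was used here.

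Plant haemoglobins bind oxygen and also act on nitric oxide. Class 1 nonsymbiotic haemoglobins hold oxygen very tightly, are known to be induced by low oxygen and convert nitric oxide to nitrate. Class 2 proteins such as Arabidopsis AHB2 release oxygen more readily and are known to respond to cytokinin and cold. ADH1 takes the last step of ethanolic fermentation, reducing acetaldehyde to ethanol and giving back the NAD+ on which glycolysis depends when respiration stalls.

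Values are log2 RMA values that were centred on each probe set's median over the 24 arrays, so 0 is the gene's own median, 1 unit is a doubling and levels cannot be set against those of another gene. The arrays had medians between -0.06 and 0.05, but the spiked-in control RNAs did not read alike in CN and BS. The 27 hybridization controls averaged 0.58 to 0.84 higher in BS than in CN at the 4 stages and the 42 poly-A controls 0.94 to 1.83 higher, while the median of all probe sets moved by at most 0.11. The part of this offset in the values of both genes was not tested; the values after scaling on these controls are given where they change a direction. In bolls, fewer cells of a type and less transcript per cell cannot be told apart.

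Haemoglobin 2 was lower in infested than in control bolls at all 4 stages, and at each stage no BS array reached the lowest CN array. At 0 dpa the CN arrays read 2.11, 2.05 and 1.93 and the BS arrays -1.40, -1.13 and -1.40. At 2 dpa they read 0.24, 0.23 and 0.39 in CN and -1.99, -1.97 and -1.76 in BS. This was the lowest point of the gene in either condition, and the control fell as well. At 5 dpa the CN arrays were back at 1.24, 1.36 and 1.31, and the BS arrays had come up to -0.48, -0.23 and -0.33. At 10 dpa CN stood at 1.69, 1.60 and 1.53 against -1.71, -1.07 and -1.57 in BS. BS replicate 2 lay above the other infested arrays there, and that group had the widest spread of the 8, with a mean of -1.45 ± 0.34 (SD, n = 3).

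BS minus CN for haemoglobin 2 was -3.34 ± 0.12 at 0 dpa (SE of limma, n = 3 against 3, as for all differences below), a 10.1-fold lower level, and -3.06 ± 0.12 at 10 dpa, 8.34-fold lower. It was -2.19 ± 0.12 at 2 dpa and -1.65 ± 0.12 at 5 dpa, 4.56-fold and 3.14-fold lower. The gap was thus widest 8 h after larval release and narrowest at 5 dpa, where it lay just past the fold change of 3 that the study set for a differentially expressed transcript (DET). The stages here follow the sample labels. In the study's printed folds the fall of this probe set was largest under 2 dpa and smallest under 10 dpa. For WRKY33, for example, the study's main text prints the same folds in separate places, shifted by a stage against each other. With each printed fold of haemoglobin 2 moved to the preceding stage, and the first to 10 dpa, their order of size is the order found here. The cause of this difference was not tested. Of all probe sets, 36.1%, 31.8%, 39.6% and 35.7% had every BS array below every CN array at 0, 2, 5 and 10 dpa, so separation of 3 arrays from 3 was common on this chip. Falls past an adjusted p of 0.01 and a fold change of 3 were rarer, at 1.28%, 4.46%, 2.46% and 11.5% of probe sets. Only 0.033% of probe sets had a lower BS minus CN than haemoglobin 2 at 0 dpa, against 2.41%, 2.12% and 3.80% at 2, 5 and 10 dpa.

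**Figure D1:**
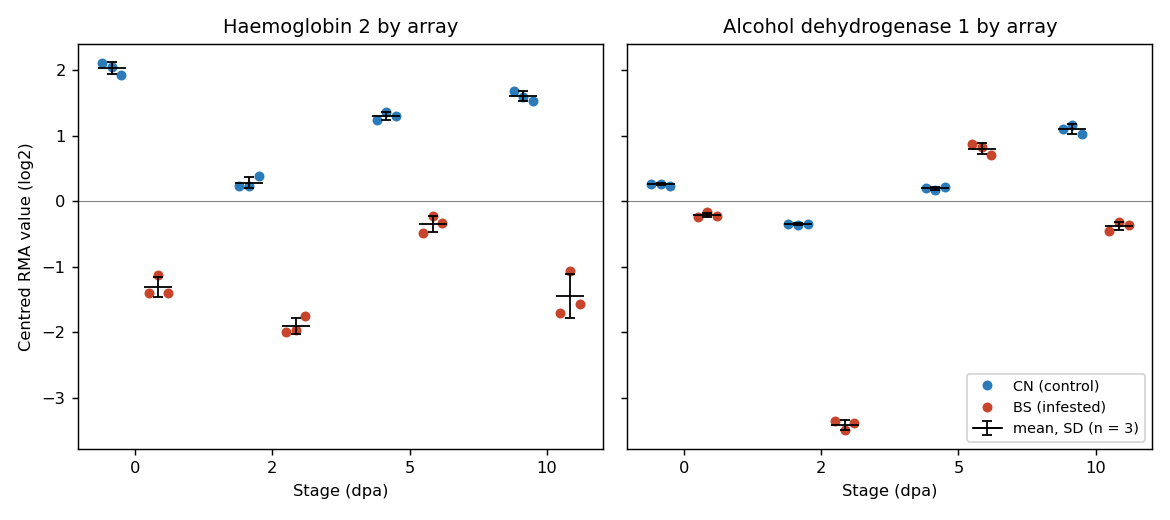
Centred RMA values (log2, y axis) of haemoglobin 2 (left) and alcohol dehydrogenase 1 (right) on each array by stage in dpa (x axis), CN in blue and BS in red, with the mean and SD of 3 arrays as black bars. Haemoglobin 2 was lower in BS at every stage, whereas ADH1 was far lower at 2 dpa, with a BS mean of -3.42, and higher in BS at 5 dpa.

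The 8 group means of haemoglobin 2 ran, from high to low, CN 0 dpa (2.03), CN 10 dpa (1.61), CN 5 dpa (1.30), CN 2 dpa (0.29), BS 5 dpa (-0.35), BS 0 dpa (-1.31), BS 10 dpa (-1.45) and BS 2 dpa (-1.90). Every control group thus lay above every infested group. Neighbours in this order did not overlap, with the exception of BS 0 and BS 10 dpa, whose arrays did. BS 10 and BS 2 dpa were parted by 0.05 between their nearest arrays.

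The course over time differed in size between CN and BS and, after 5 dpa, in direction. In CN the level fell by 1.74 from 0 to 2 dpa, rose by 1.02 to 5 dpa and by a further 0.31 to 10 dpa (SE 0.12 each). In BS it fell by 0.60, rose by 1.56 and then fell by 1.10. Control and infested bolls therefore moved in the same direction over both earlier steps and in opposite directions from 5 to 10 dpa. Set against the mean of the CN groups at 0 and 5 dpa in place of the low CN group at 2 dpa, a comparison chosen after seeing the data, BS at 2 dpa stood 3.57 lower.

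ADH1 followed another course: slightly lower in BS at 0 dpa, far lower at 2 dpa, higher at 5 dpa and lower again at 10 dpa. At 0 dpa the CN arrays read 0.26, 0.27 and 0.24 and the BS arrays -0.24, -0.17 and -0.22. At 2 dpa CN was at -0.34, -0.36 and -0.34 and BS at -3.36, -3.50 and -3.39. These BS arrays at 2 dpa stood 2.91 below the nearest array of any other group. At 5 dpa the order turned, with CN at 0.20, 0.17 and 0.22 and BS at 0.87, 0.83 and 0.71. At 10 dpa the CN arrays were the highest of the series at 1.11, 1.17 and 1.03, and the BS arrays read -0.45, -0.32 and -0.37. Control and infested arrays did not overlap at any stage.

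BS minus CN for ADH1 was -3.07 ± 0.05 at 2 dpa, 8.38-fold lower, and -1.49 ± 0.05 at 10 dpa, 2.80-fold lower and so short of a fold change of 3. It was -0.47 ± 0.05 at 0 dpa and 0.61 ± 0.05 at 5 dpa, 1.39-fold lower and 1.52-fold higher. At 5 dpa 27.7% of all probe sets had every BS array above every CN array, and 6.39% rose past both thresholds. In the distribution over all probe sets, 0.959% lay lower than ADH1 at 2 dpa, 12.5% at 10 dpa, 17.9% at 0 dpa and 83.4% at 5 dpa. The rise at 5 dpa depended on the scale: BS minus CN became -0.12 when arrays were centred on the hybridization controls and -1.11 when they were centred on the poly-A controls. On those scales the 10 dpa difference was -2.15 and -2.43.

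From high to low, the group means of ADH1 ran CN 10 dpa (1.10), BS 5 dpa (0.80), CN 0 dpa (0.26), CN 5 dpa (0.20), BS 0 dpa (-0.21), CN 2 dpa (-0.35), BS 10 dpa (-0.38) and BS 2 dpa (-3.42). CN 2 dpa and BS 10 dpa overlapped. CN 0 and CN 5 dpa were parted by 0.03 between their nearest arrays. Unlike haemoglobin 2, ADH1 did not order the groups by infestation. Its control level fell by 0.61 from 0 to 2 dpa and then rose by 0.54 and 0.91 (SE 0.05 each), while in BS it fell by 3.20, rose by 4.22 and fell by 1.18. Both genes thus had their lowest control and infested means at 2 dpa, rose in both conditions to 5 dpa and parted between CN and BS afterwards.

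Across the 24 arrays, which share groups and stages, ADH1 and haemoglobin 2 correlated with r = 0.65, and with r = 0.65 over the 12 CN and 0.82 over the 12 BS arrays. These values describe the 8 group patterns and carry no test.

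**Figure D2:**
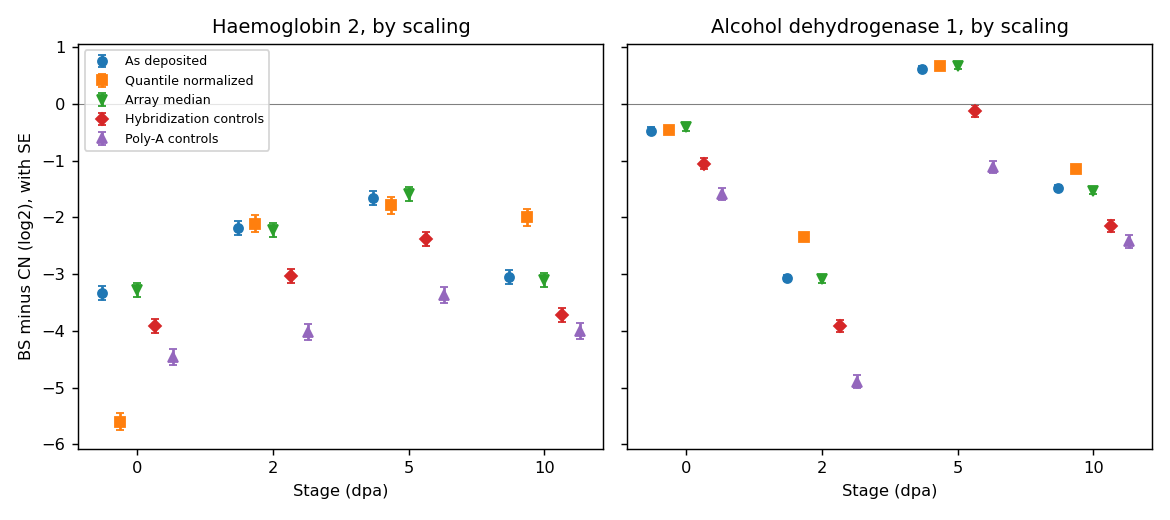
BS minus CN (log2, y axis, with the SE of limma) of haemoglobin 2 (left) and ADH1 (right) at each stage in dpa (x axis), for the deposited values and for 4 other scalings of the arrays. Haemoglobin 2 stayed below 0 under every scaling drawn, and ADH1 at 5 dpa lay at 0.61 as deposited but at -0.12 and -1.11 on the spiked-in controls.

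The other haemoglobin probe set of the lists ran opposite to haemoglobin 2. The array annotation names it nonsymbiotic haemoglobin class 1 (GLB1) and the reference table pairs it with LOC107942147. The study matches it to Arabidopsis AHB1 in its main text but to AHB2 in its supplementary annotation. At 0 dpa its CN arrays read -1.17, -1.37 and -1.17 and its BS arrays 2.32, 2.09 and 2.22. At 2 dpa they stood at -1.75, -2.02 and -1.78 in CN and at 2.67, 2.66 and 2.74 in BS. The infested level thus peaked where that of haemoglobin 2 was lowest. At 5 dpa CN was at -0.96, -1.15 and -1.38 and BS at 0.98, 1.03 and 0.96, and at 10 dpa CN was at -2.23, -2.39 and -2.89 and BS at 2.18, 2.34 and 2.37. Every BS array lay above every CN array at each stage, as it did for 23.3%, 36.8%, 27.7% and 39.8% of all probe sets at 0, 2, 5 and 10 dpa.

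BS minus CN of haemoglobin class 1 was 3.45 ± 0.13, 4.54 ± 0.13, 2.15 ± 0.13 and 4.80 ± 0.13 at 0, 2, 5 and 10 dpa, and the limma adjusted p was 3.2e-15, 3.3e-17, 4.6e-12 and 2.3e-18. Of all probe sets, 4.19%, 3.34%, 6.39% and 8.97% rose past both thresholds at these stages. The lists were drawn from tables of transcripts that the study had already called on these arrays, so such calls are not independent of the choice. The call at 5 dpa was lost on the spiked-in controls, where BS minus CN was 1.43 (hybridization) and 0.44 (poly-A); at 0, 2 and 10 dpa it held under each of the 4 other scalings. Both haemoglobins had the BS minus CN of smallest size at 5 dpa on the deposited scale, whereas the study's printed folds have it under 10 dpa. With the shift by a stage described above, the smallest printed fold of both falls at 5 dpa. For haemoglobin class 1 the response at 10 dpa exceeded that at 5 dpa by 2.65 ± 0.18 (limma interaction, adjusted p = 1.1e-10). Of all probe sets, 19.1% differed past both thresholds between at least 1 pair of stages.

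Taken on the same array, where a constant shift of the whole array cancels, haemoglobin class 1 minus haemoglobin 2 was 6.79, 6.73, 3.81 and 7.86 higher in BS than in CN (log2) at 0, 2, 5 and 10 dpa. Quantile normalization, which is no constant shift, gave 9.40, 8.11, 3.83 and 5.38. In CN this difference had group means between -4.11 and -2.14 and in BS between 1.34 and 4.59. Because each probe set is centred on its own median, the sign of such a difference does not say which transcript was the more abundant. Over the 12 BS arrays the genes mirrored each other with r = -0.94, while over the 12 CN arrays r was 0.18. The opposite courses were thus seen among infested stages and between conditions rather than among control stages.

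**Figure D3:**
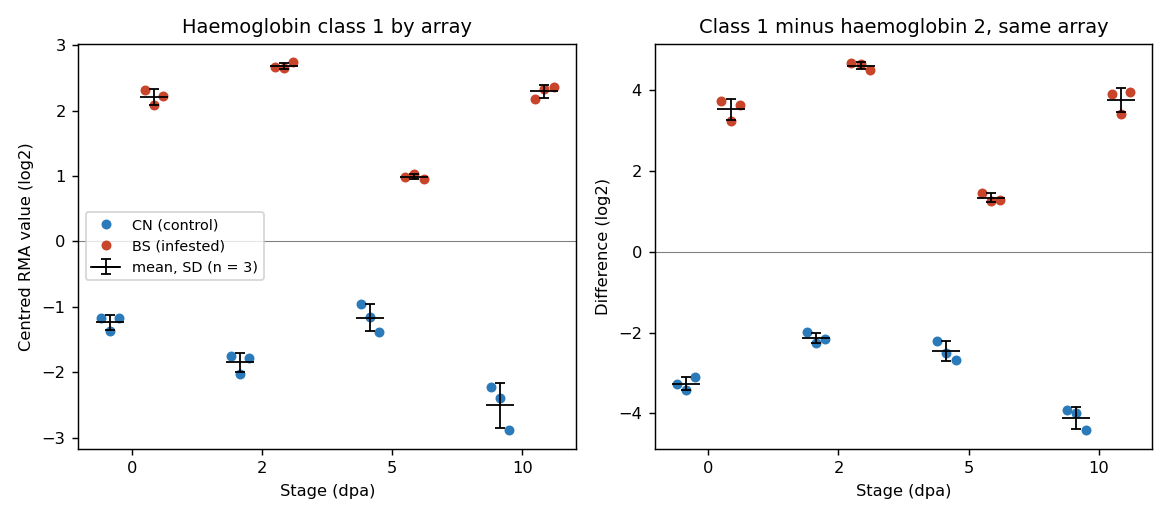
Left, centred RMA values (log2, y axis) of haemoglobin class 1 by stage in dpa (x axis); right, haemoglobin class 1 minus haemoglobin 2 on the same array (log2), with CN in blue, BS in red and the mean and SD of 3 arrays in black. The difference had group means of -4.11 to -2.14 in CN and 1.34 to 4.59 in BS.

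Besides the ADH1 probe set described above, 10 probe sets were annotated as alcohol dehydrogenases. None rose and 1 fell at 0 dpa, none rose and 3 fell at 2 dpa, 4 rose and none fell at 5 dpa, and 2 rose and 6 fell at 10 dpa (adjusted p of at most 0.01 by limma and a fold change of at least 3). Their median BS minus CN was -0.30, -0.68, 0.33 and -1.99 at the 4 stages, beside -0.08, 0.08, -0.11 and 0.08 for all probe sets. Over all probe sets 4.19%, 3.34%, 6.39% and 8.97% rose and 1.28%, 4.46%, 2.46% and 11.5% fell past these thresholds. At an unadjusted p under 0.05, 2, 1, 5 and 2 of the 10 were higher and 5, 6, 4 and 7 lower in BS, where 22.9%, 35.0%, 27.6% and 40.4% of all probe sets were higher and 34.6%, 30.5%, 39.5% and 35.7% lower. The methods' t-test gave the same counts of calls as limma. The rises at 5 dpa depended on the scale: 2 rose and 4 fell when arrays were centred on the hybridization controls, and 0 rose and 5 fell on the poly-A controls. At 10 dpa quantile normalization left 2 rises and 2 falls. All were taken from lists of called transcripts, so these counts are a description.

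Several of them carry the ADH1 name, and they did not share one pattern. A probe set designed on Gossypium raimondii and matched to Arabidopsis ADH1, called the G. raimondii ADH1 match here, was closest to the main ADH1 probe set. Its BS minus CN was -1.90 ± 0.19 at 2 dpa (adjusted p = 1.5e-08) and 1.68 ± 0.19 at 5 dpa (adjusted p = 8.4e-08), so it fell and then rose past both thresholds. At 0 and 10 dpa it read -0.45 ± 0.19 and -1.57 ± 0.19, short of a fold change of 3. At 2 dpa its CN arrays were -0.43, -0.31 and -0.40 and its BS arrays -2.04, -2.32 and -2.47, and at 5 dpa they were 0.28, 0.15 and 0.02 in CN and 1.97, 1.97 and 1.55 in BS. The responses at 5 and 2 dpa differed by 3.57 ± 0.26 (limma interaction, adjusted p = 4.9e-10). The call at 5 dpa was lost on the hybridization controls (0.95) and the poly-A controls (-0.04), and that at 2 dpa after quantile normalization (-1.26). At 0 dpa BS replicate 3 read -0.02 against -1.08 and -0.90 for the other infested arrays, and CN and BS overlapped.

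Cotton Adh1, the probe set annotated as alcohol dehydrogenase 1 of cotton itself and paired with LOC107924007, was lower in BS at all stages but past a fold change of 3 at 10 dpa alone. BS minus CN was -1.06, -1.08 and -1.42 at 0, 2 and 5 dpa (SE 0.09 each) and -2.85 ± 0.09 at 10 dpa (adjusted p = 1.6e-17). There the CN arrays read 1.56, 1.48 and 1.53 and the BS arrays -1.44, -1.23 and -1.30. It had neither the deep trough of the main ADH1 probe set in BS at 2 dpa nor its higher level at 5 dpa. On the same array, the main ADH1 probe set minus cotton Adh1 changed between CN and BS by -1.99 at 2 dpa and by 2.03 at 5 dpa. A constant shift of the array cancels in these values, which became -1.47 and 2.23 after quantile normalization.

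A G. hirsutum probe set whose best match is also Arabidopsis ADH1, called the G. hirsutum ADH1 match here, rose at 5 and 10 dpa, by 2.84 ± 0.08 and 2.72 ± 0.08 (adjusted p = 2.7e-17 and 1.8e-17). On the poly-A controls the 5 dpa value was 1.12, short of a fold change of 3. At 2 dpa its CN arrays read 0.64, 0.64 and 0.71 and its BS arrays 0.68, 0.54 and 0.59, and the groups overlapped. At 10 dpa, where the main ADH1 probe set and cotton Adh1 were lower in BS, its CN arrays stood at -1.22, -0.98 and -1.10 and its BS arrays at 1.53, 1.58 and 1.75. Probe sets bearing the same Arabidopsis name thus lay on either side of 0 at 10 dpa.

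**Figure D4:**
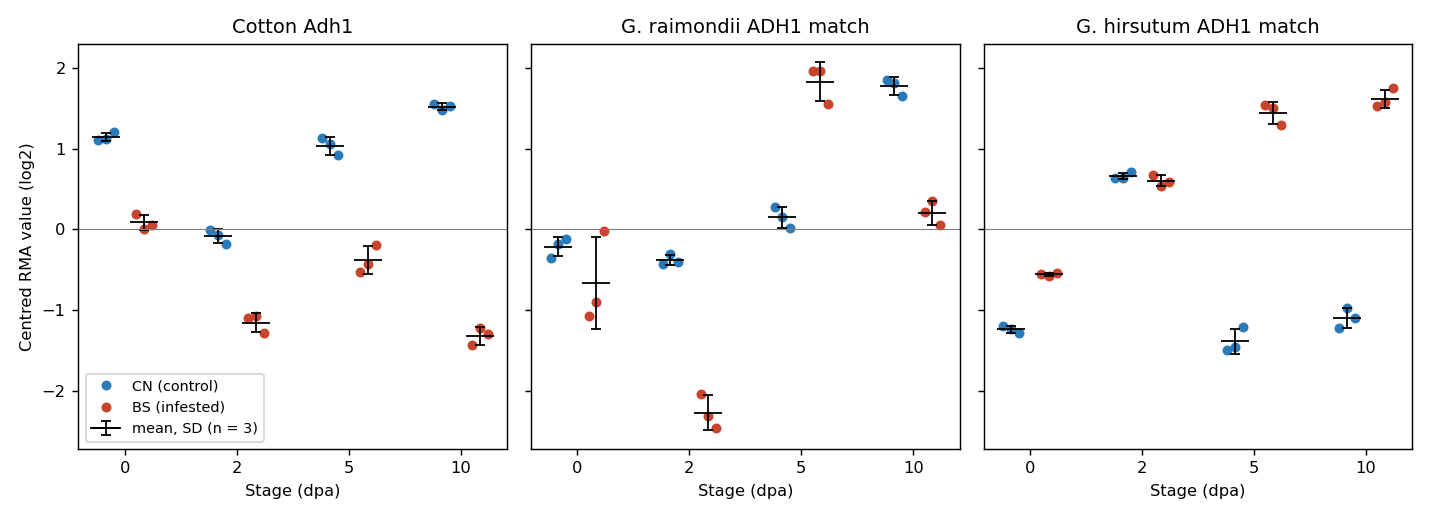
Centred RMA values (log2, y axis) of 3 further probe sets matched to ADH1, cotton Adh1, the G. raimondii match and the G. hirsutum match, on each array by stage in dpa (x axis), CN in blue, BS in red, mean and SD of 3 arrays in black. The G. raimondii match had its lowest BS mean at 2 dpa, -2.28, and was higher in BS at 5 dpa, whereas the G. hirsutum match was higher in BS at 5 and 10 dpa.

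The ADH2 genes of cotton differed from these. ADH2b rose at 5 dpa, by 2.12 ± 0.14 (adjusted p = 2.9e-11), and read -0.14 ± 0.14 at 10 dpa. ADH2a and ADH2c fell at 10 dpa, with BS minus CN of -1.74 ± 0.08 and -2.59 ± 0.10 (adjusted p = 8.9e-15 and 2.2e-15), and passed the thresholds at no earlier stage. The rise of ADH2b was lost on the hybridization controls (1.40) and the poly-A controls (0.40), and the falls of ADH2a and ADH2c after quantile normalization (-1.18 and -1.57). Over the 12 CN arrays the pattern of ADH2a was close to that of the main ADH1 probe set, r = 0.98, and over the 12 BS arrays it was not, r = -0.36.

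A pair of probe sets of one sequence cluster, both annotated as putative alcohol dehydrogenase, fell at 10 dpa, with BS minus CN of -2.24 ± 0.08 and -2.45 ± 0.17 (adjusted p = 3.3e-16 and 3.2e-11). The first, whose best Arabidopsis match is likewise ADH1, also fell at 0 dpa (-2.16 ± 0.08) and the second at 2 dpa (-1.62 ± 0.17), with adjusted p = 3.1e-15 and 4.5e-08. After quantile normalization the 10 dpa values were -1.26 and -1.46 and the second read -1.57 at 2 dpa, all without a call. S-nitrosoglutathione reductase, a class III alcohol dehydrogenase that acts on a nitric oxide derivative in place of ethanol, was matched by a pair of probe sets with opposite courses. The G. hirsutum one fell at 2 and 10 dpa, with BS minus CN of -1.96 ± 0.13 and -3.09 ± 0.13 (adjusted p = 3.2e-11 and 5.6e-15). The G. raimondii one rose at 5 and 10 dpa, by 2.96 ± 0.09 and 2.98 ± 0.09 (adjusted p = 1.3e-16 and 3.7e-17), and read 1.24 at 5 dpa on the poly-A controls, without a call.

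Other transcripts of the low-oxygen response were taken from lists made by gene name. Together with the haemoglobin and alcohol dehydrogenase probe sets just described they came to 37, of which 9, 11, 13 and 14 rose and 3, 5, 2 and 14 fell at 0, 2, 5 and 10 dpa. Beside them, 4.19%, 3.34%, 6.39% and 8.97% of all probe sets rose and 1.28%, 4.46%, 2.46% and 11.5% fell past the thresholds. The median BS minus CN of the 37 was 0.57, -0.00, 0.81 and 0.23, and that of all probe sets -0.08, 0.08, -0.11 and 0.08. Since the 37 came from lists of transcripts that the study had called, a high count was favoured by the choice and is read no further. Some of them passed the thresholds at no stage here.

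In fermentation, pyruvate decarboxylase supplies acetaldehyde to ADH1, and lactate dehydrogenase opens the alternative route to lactate. A probe set matching lactate dehydrogenase rose by 2.36, 2.22 and 2.55 at 0, 2 and 10 dpa (SE 0.09 each, adjusted p of at most 8.7e-15) and read 1.04 at 5 dpa. Pyruvate decarboxylase 2 read 0.57, -0.08 and -0.74 at the first 3 stages and fell by 1.80 ± 0.05 at 10 dpa (adjusted p = 5.7e-18). These were the only probe sets of that list. The rise of lactate dehydrogenase at 2 dpa was lost on the hybridization controls (1.38) and the poly-A controls (0.39) and that at 0 dpa on the poly-A controls (1.24), while the fall of pyruvate decarboxylase 2 was lost after quantile normalization (-1.11).

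Sucrose synthase cleaves sucrose at low energy cost, and phosphofructokinase commits sugar to glycolysis. Of 5 such probe sets, 2, 1, 1 and 3 fell at the 4 stages and 1 rose, at 10 dpa. Over all probe sets 1.28%, 4.46%, 2.46% and 11.5% fell past the thresholds, and 8.97% rose at 10 dpa. The list was taken from called transcripts, so these counts are a description. Sucrose synthase 1 fell at 2, 5 and 10 dpa, with BS minus CN of -1.85, -1.65 and -5.40 (SE 0.14 each, adjusted p of at most 8.1e-10). A phosphofructokinase probe set fell by 2.22 ± 0.11 at 0 dpa and rose by 1.65 ± 0.11 at 10 dpa (adjusted p = 2.3e-13 and 9.8e-12). Its rise was lost after quantile normalization (1.19) and on the hybridization and poly-A controls (0.98 and 0.71).

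Group VII ethylene response factors are the regulators that switch on ADH1 and haemoglobin genes in Arabidopsis when oxygen falls. Of the 10 probe sets matched to RAP2.3, RAP2.12 and HRE1, 5, 5, 4 and 6 rose at the 4 stages and none fell by limma at the same thresholds, which 4.19%, 3.34%, 6.39% and 8.97% of all probe sets passed upward. At an unadjusted p under 0.05, 10, 8, 10 and 8 were higher and 1 lower, at 10 dpa, beside 22.9%, 35.0%, 27.6% and 40.4% of all probe sets higher, and the methods' t-test called 5, 5, 3 and 6 rises and no fall. Their median BS minus CN lay between 1.23 and 1.88, but at 2 and 5 dpa it was -0.51 and -0.48 on the poly-A controls, where 2 fell at 2 dpa. A RAP2.3 (ERF72) probe set rose by 5.65, 3.39, 4.48 and 5.70 (SE 0.10 each, adjusted p of at most 6.0e-17). At 2 dpa it read 1.56 on the poly-A controls, without a call. Another RAP2.3 probe set had nearly the same BS minus CN at every stage. All rises at 5 and 10 dpa were of RAP2.3 matches. A RAP2.12 match rose at 0 and 2 dpa only (2.40 and 1.60). The HRE1 matches passed the thresholds at no stage, and the lower of them read -0.32 at 10 dpa. The counts thus rest mostly on RAP2.3. Several of the 10 match RAP2.3, and a pair of them share a source sequence, so the 10 are not independent of each other. The list was also taken from called transcripts, so its counts are a description.

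Nitrate reductase yields nitrite, from which nitric oxide can arise, and alternative oxidase carries electrons to oxygen past the later respiratory complexes. One probe set matched to nitrate reductase 1 rose by 2.63, 3.45, 4.22 and 6.04 (SE 0.13 each, adjusted p of at most 3.9e-13), and one matched to nitrate reductase 2 fell by 3.52 ± 0.07 at 10 dpa (adjusted p = 1.3e-20). Others with these names went the other way: a further nitrate reductase 1 match fell at 10 dpa, with BS minus CN of -2.35, and a further nitrate reductase 2 match rose at 2 dpa, by 1.73 (both chosen after their values were seen). Of the 7 probe sets in that list, 1, 2, 2 and 1 rose at the 4 stages and 1, 1 and 4 fell at 2, 5 and 10 dpa. On the poly-A controls 0, 1, 1 and 1 rose and 2, 4, 5 and 4 fell. The array annotation calls several of them cytochrome b5 or sulfite oxidase. Both alternative oxidase probe sets rose at 2, 5 and 10 dpa and 1 of them at 0 dpa, and alternative oxidase 1D rose by 4.86, 1.95, 4.45 and 6.69 (SE 0.15 each, adjusted p of at most 2.8e-10). On the hybridization controls and on the poly-A controls alike, none rose at 2 dpa and 1 rose at 5 dpa. Over all probe sets 4.19%, 3.34%, 6.39% and 8.97% rose and 1.28%, 4.46%, 2.46% and 11.5% fell past the thresholds on the deposited scale. The nitrate reductase and alternative oxidase lists were taken from called transcripts, so their counts are a description.

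**Figure D5:**
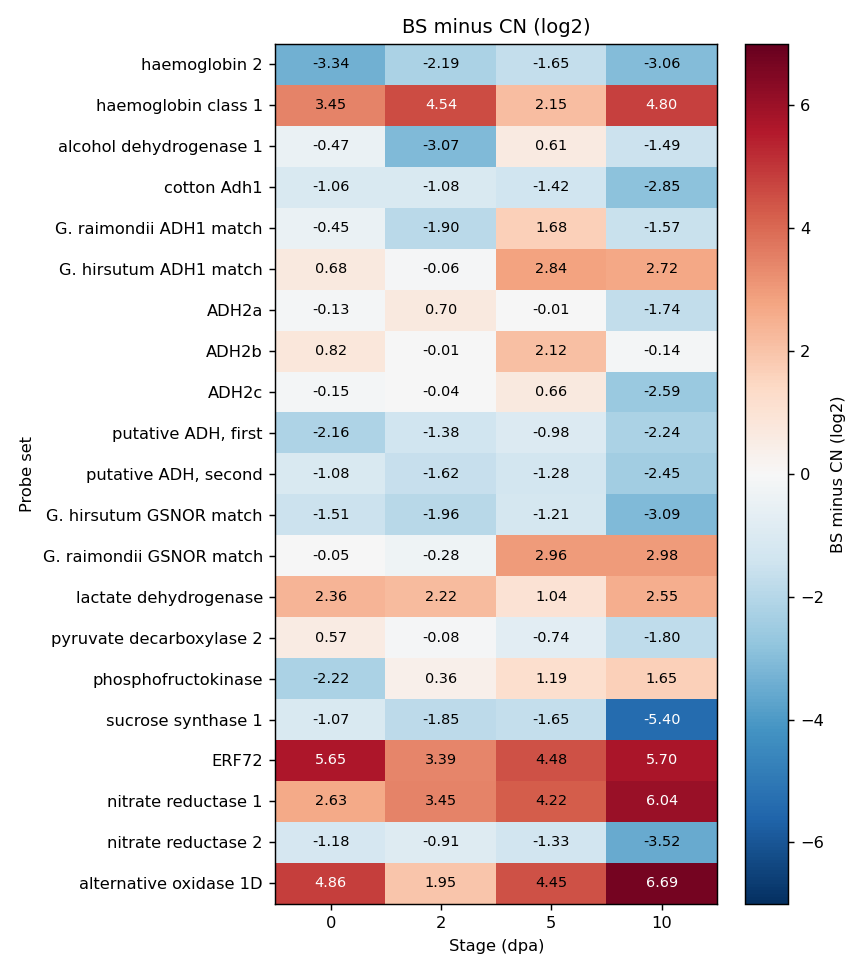
BS minus CN (log2, printed in each cell and coloured) of haemoglobin 2, ADH1 and the named probe sets of the haemoglobin, alcohol dehydrogenase and other low-oxygen lists (rows; GSNOR is S-nitrosoglutathione reductase, ERF72 is RAP2.3) at each stage in dpa (columns). Haemoglobin 2 was negative and haemoglobin class 1 positive at all 4 stages, and at 10 dpa ADH1 stood at -1.49 and alternative oxidase 1D at 6.69.

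The makeup of the bolls could move with these values. Both fibre markers were lower in BS at 0, 2, 5 and 10 dpa. BS minus CN was -4.72, -2.70, -2.25 and -2.37 for Glp1 and -1.0, -1.65, -1.65 and -3.22 for ACP1. Glp1 was, like haemoglobin 2, lowest in CN and BS at 2 dpa. ACP1 was lowest in CN at 2 dpa (0.40) but in BS at 10 dpa (-2.20). Of the 3 pollen and anther markers 2 rose at 0, 5 and 10 dpa and 1 fell at 10 dpa. Over all probe sets 4.19%, 6.39% and 8.97% rose at 0, 5 and 10 dpa and 11.5% fell at 10 dpa past the thresholds. The markers too were taken from called transcripts. Centring leaves no level to be summed over markers or to be read as absent, and the part of these markers in the results was not tested.

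The probe sets closest to haemoglobin 2 over the 24 arrays, among all 23977, had r between 0.97 and 0.99. They were matched to xyloglucan endotransglucosylase/hydrolase 24, a cell wall enzyme (r = 0.99), EXORDIUM like 5 (r = 0.98), a cysteine proteinase similar to SAG12 (r = 0.98) and an RNA-binding protein (r = 0.97), beside one with no name here. Their BS minus CN was negative at all 4 stages, from -4.09 to -0.89 at 0 dpa. The most opposite were a galacturonosyltransferase-like probe set and one similar to an unknown protein, both at r = -0.98.

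For ADH1 the closest patterns were looser, with r between 0.88 and 0.92. Of the 5, the G. raimondii ADH1 match was the fifth at r = 0.88. The closest, similar to a rice transcript of no stated function (r = 0.92), read -0.60, -2.14, 0.73 and -1.71 for BS minus CN, and so shared the turn to a higher BS level at 5 dpa. The 3 between them had no name here, nor had the most opposite pair, at r = -0.92 and -0.91.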

How the data were processed

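Total RNA of control and infested bolls was hybridized to 24 arrays, 3 per group, and groups were taken from the sample labels. The deposited values are log2 values, for which the authors ran RMA with its usual quantile step between arrays in GeneSpring GX. For this software the series design gives version 11.5 and the methods another. Every row median over the arrays lies within 5.0e-07 of 0, so centring by probe set was inferred. Abundance is therefore lost, and no filter on dim probe sets was possible. The 103 AFFX and 52 RPTR control probe sets were left out.

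Means of the 8 groups were estimated for 23977 probe sets in one limma fit, limma 3.58.1 (R 4.3.3; 16 residual and 3.53 prior degrees of freedom), with Benjamini-Hochberg adjustment over all of them. The thresholds of the methods were kept for DETs, an adjusted p up to 0.01 with a fold change from 3. The code was tested on simulated data. The number of arrays limits the precision, and replicates are pools, so p-values measure the spread between pools.

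The members and gene lists were chosen with earlier results of these data known. Lists were made by word patterns in the annotation of the study's tables of called transcripts, which describe 13.7% of the probe sets tested. The text names every haemoglobin and alcohol dehydrogenase of the lists, the largest rise and largest fall of each other list, and per member the 5 highest and 2 lowest correlations. Of the 42 other list probe sets, markers included, 10 had a gene symbol in the reference table. Probe sets are named by gene, and those sharing a name by the species they were designed on. Alternatives were other scalings, each replicate left out, a replicate block, the 6 arrays of a stage alone, the methods' t-test and other fold thresholds. Quantile normalization was applied anew to the centred values and makes the spread of all arrays alike. Most probe sets passed the thresholds at 10 dpa (8.97% upward and 11.5% downward), more than at any other stage. A call lost to quantile normalization there therefore cannot decide whether that call depends on the scale. No sequences are shown because the tables used here hold none.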

Additional observations from a re-analysis of the deposited data

Results flagged for a closer look

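ADH1 moved in opposite directions at different stages: every BS array was below every CN array at 0, 2 and 10 dpa (BS minus CN -0.47, -3.07 and -1.49) and above at 5 dpa (0.61). The difference between stages was not tested, since ADH1 was chosen on this contrast.

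Of 19 other named probe sets, 16 had BS minus CN values that differed between stages by the limma interaction test with the same thresholds, as did 19.1% of all probe sets for at least 1 pair of stages. All 19 came from lists of called transcripts, and some were picked for the largest change at any stage. A large difference was thus favoured by the choice, and the count is a description. The largest differences are given as later minus earlier stage. From 5 to 10 dpa they were 2.65 for haemoglobin class 1, -2.27 for ADH2b, -3.25 for ADH2c and -1.88 for the G. hirsutum match of S-nitrosoglutathione reductase. From 2 to 10 dpa ADH2a differed by -2.45, the G. raimondii match of that enzyme by 3.26, RAP2.3 by 2.30, nitrate reductase 2 by -2.61 and alternative oxidase 1D by 4.74. From 0 to 10 dpa the values were -1.79 for cotton Adh1, -2.37 for pyruvate decarboxylase 2, 3.87 for phosphofructokinase, -4.33 for sucrose synthase 1 and 3.41 for nitrate reductase 1. From 2 to 5 dpa they were 2.90 for the G. hirsutum and 3.57 for the G. raimondii ADH1 match.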

How the results depend on the processing

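Haemoglobin 2 was lower in BS at all stages under every alternative, and ADH1 turned at 5 dpa alone. For haemoglobin 2, BS minus CN at 0, 2, 5 and 10 dpa was -3.92, -3.04, -2.38 and -3.73 on the hybridization controls and -4.46, -4.02, -3.37 and -4.00 on the poly-A controls. A further quantile normalization gave -5.61 at 0 dpa and -2.0 at 10 dpa. ADH1 read -1.05, -3.91, -0.12 and -2.15 on the hybridization controls and -1.59, -4.90, -1.11 and -2.43 on the poly-A controls, so 10 dpa came past a fold change of 3. It read -2.35, 0.67 and -1.15 at 2, 5 and 10 dpa after quantile normalization, and -0.42 and 0.67 at 0 and 5 dpa on array medians. The cause was not tested. Against CN at 0 and 5 dpa, chosen after seeing the data, BS at 2 dpa stood at -3.57 for haemoglobin 2 and -3.64 for ADH1.

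With single arrays left out, haemoglobin 2 ranged from -3.43 to -3.29, -2.26 to -2.14, -1.71 to -1.58 and -3.25 to -2.93 at the 4 stages and ADH1 from -0.49 to -0.45, -3.10 to -3.03, 0.58 to 0.65 and -1.52 to -1.45. The lowest 10 dpa value of haemoglobin 2 is that without BS replicate 2. The counts of the 37 other probe sets that rose ranged over 9 to 9, 10 to 11, 12 to 13 and 13 to 15, and of those that fell over 3 to 4, 4 to 5, 1 to 2 and 13 to 15, where 1 is without BS replicate 2.

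On the poly-A controls 5, 3 and 4 rose and 10, 20 and 14 fell at 0, 2 and 5 dpa, and on the hybridization controls 6 and 8 rose at 2 and 5 dpa and 10, 10 and 9 fell at 0, 2 and 5 dpa. Quantile normalization left 6 falls at 0, 5 and 10 dpa each. With no fold threshold 19, 17 and 23 rose and 12 fell at each of these earlier stages, and with a fold change of 2, 10 and 8 fell at 0 and 5 dpa. The shares of all probe sets under these alternatives are not given here, so the list counts under them are a description. For the 19 other named probe sets, each at the stage of its largest called change, 9 of 285 alternative values lost the call and none turned. Over all 42 of their calls at any stage, quantile normalization lost 8, the hybridization controls 6 and the poly-A controls 11, of which the G. raimondii ADH1 match at 5 dpa turned to -0.04. Same-numbered replicates did not deviate together (r from -0.24 to 0.11), and the main fit did not pair them. Such correlations cannot show whether the replicates were paired when they were grown or processed. The 6 arrays of a stage alone gave the same counts, and the methods' t-test differed in 1 count, 12 rises at 5 dpa. The replicate block left the differences, -3.34 for haemoglobin 2 at 0 dpa, and the list counts as they were.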
